A study of Mus musculus with 24 samples.

Results

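Bivalent promoters carry trimethylation of histone H3 at lysine 4 (H3K4me3), the mark of active promoters, together with trimethylation at lysine 27 (H3K27me3), which Polycomb Repressive Complex 2 writes at silent developmental genes. A bivalent promoter is generally lowly expressed and poised, and during differentiation it commonly keeps 1 of the marks, which is called resolution. Supporting cells are the somatic lineage of the fetal gonad that becomes Sertoli cells in XY embryos and pregranulosa cells in XX embryos. The promoters described here were bivalent in the supporting cell progenitors of both sexes, were still bivalent in pregranulosa cells, and had lost at least 1 mark in Sertoli cells. There were 522 of them among the 34653 promoters of chromosomes 1 to 19, which is 1.51%.

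The study profiled H3, H3K4me3 and H3K27me3 by ChIP-seq in 4 sorted mouse populations, with 2 replicates for each antibody and population (24 samples), to ask how chromatin at sex-determining genes changes as the testis or ovary fate is taken. The authors deposited 8 lists of enriched regions, an H3K4me3 and an H3K27me3 list per population, and each list pooled both replicates. Embryos came from C57BL/6 x CD1 matings. XY and XX progenitor cells were sorted at E10.5 from gonads with the SF1-eGFP reporter, male and female respectively. Sertoli cells were sorted at E13.5 from male gonads with Sox9-CFP, and pregranulosa cells (granulosa cells in the sample labels) from female gonads with TESM-CFP. The labels name no mutation in any population, each replicate pooled gonads of several embryos, and each population is defined by what its reporter marks. The E10.5 and E13.5 populations therefore differ in reporter as well as in stage. Sertoli and pregranulosa cells differ in reporter as well as in sex. These differences cannot be told apart. Chromatin of Drosophila S2 cells served as carrier in every immunoprecipitation.

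A promoter was the window of 2 kb on each side of the annotated transcription start site (TSS) of a gene, 4001 bp in all, on the mm9 build with GENCODE M1 genes. A mark was present where a region of its list overlapped the window by at least 1 bp. The lists hold no usable level of enrichment, so presence, the number of covered bases and the width of the region are the measurements. The lists choose the members by presence of the marks in all 4 populations, so that presence is a description and was not tested. With 1 pooled list per condition no spread between replicates could be computed and no p-value is given. Intervals in parentheses are exact Clopper-Pearson intervals for shares and order-statistic intervals for medians, both at 95%. They cover counting error only and treat promoters as independent, although neighbouring windows can share a region. A list with both marks does not show that they lay on the same allele or in the same cell. H3K27me3 was called from 44446456 tags in Sertoli cells, more than the 6470151 and 33185400 of XY and XX progenitors. H3K4me3 was called from 31104760 tags in Sertoli cells, which lies between the 10162534 of XY and the 49254553 of XX progenitors. The depth and calling settings of the pregranulosa lists are unknown, since they have no header lines. The pregranulosa H3K27me3 list held 12609 peaks that formed 12609 regions, while 74154 Sertoli peaks joined into 13313. Widths set against the pregranulosa lists carry this limit.

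Of the 522 promoters, 383 kept H3K4me3 alone in Sertoli cells (73.4%, 69.4 to 77.1), 138 kept H3K27me3 alone (26.4%, 22.7 to 30.4), and 1 had neither mark. Over all 34653 windows, H3K4me3 without H3K27me3 was seen in Sertoli cells at 35% and H3K27me3 without H3K4me3 at 5.59%. The promoter with neither mark was that of the annotated miRNA gene AC134897.1, whose window held 63 to 445 bp of H3K4me3 in the other 3 populations. The 522 promoters are 12.6% of the 4145 windows that were bivalent in both progenitors and in pregranulosa cells, and the remaining 3623 were bivalent in all 4 populations. The mirror group, resolved only in pregranulosa cells, held 238 promoters, which is 6.16% of the 3861 windows bivalent in both progenitors and Sertoli cells. A further 588 were resolved in both lineages. Retention of H3K27me3 alone was seen at 7 of the 238 promoters resolved only in pregranulosa cells (2.94%, 1.19 to 5.97). It was seen in Sertoli cells at 37 of the 588 resolved in both lineages (6.29%, 4.47 to 8.57).

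The members formed 440 separate loci once overlapping windows were joined, and 160 of them shared bases with the window of another member. In 70 loci a pair of members lay on opposite strands, as at Sox9 and the adjoining BC006965 or at Pdgfa and 6330403L08Rik. At these named pairs the region widths of both marks were the same at both promoters. Whether 1 region served both was not counted at the other loci. Only 1 locus held both promoters that kept H3K4me3 and promoters that kept H3K27me3. Protein-coding genes made up 434 of the 522 (83.1%), followed by 32 lincRNA genes, 29 processed transcripts and 12 miRNA genes. Members came from all 19 chromosomes and made up 7.77% to 16% of the windows of a chromosome that were bivalent in the other 3 populations.

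The sequences just before the TSS show what the 2 outcomes looked like at genes whose values follow. Each is the 250 bases upstream of the TSS on mm9, 5′ to 3′ on the strand of the gene, with CpG dinucleotides in capitals. Sox9 (chr11:112643288-112643537, plus strand), Dmrt1 (chr19:25579858-25580107, plus strand) and Dhh (chr15:98728972-98729221, minus strand) kept H3K4me3. Wnt1 (chr15:98620038-98620287, plus strand), Otx2 (chr14:49287320-49287569, minus strand) and Syt13 (chr2:92755005-92755254, plus strand) kept H3K27me3. The Sox9 stretch reaches the start of BC006965 on the other strand.
Sox9: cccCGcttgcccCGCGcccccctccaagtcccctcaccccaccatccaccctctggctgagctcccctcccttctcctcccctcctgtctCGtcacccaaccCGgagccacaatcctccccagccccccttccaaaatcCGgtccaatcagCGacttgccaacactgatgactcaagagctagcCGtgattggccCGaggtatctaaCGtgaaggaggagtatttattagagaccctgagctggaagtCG
Dmrt1: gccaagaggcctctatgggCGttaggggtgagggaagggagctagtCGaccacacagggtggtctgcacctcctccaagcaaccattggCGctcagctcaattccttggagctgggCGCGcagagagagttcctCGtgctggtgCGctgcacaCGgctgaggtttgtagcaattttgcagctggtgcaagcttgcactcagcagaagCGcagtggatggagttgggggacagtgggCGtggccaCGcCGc
Dhh: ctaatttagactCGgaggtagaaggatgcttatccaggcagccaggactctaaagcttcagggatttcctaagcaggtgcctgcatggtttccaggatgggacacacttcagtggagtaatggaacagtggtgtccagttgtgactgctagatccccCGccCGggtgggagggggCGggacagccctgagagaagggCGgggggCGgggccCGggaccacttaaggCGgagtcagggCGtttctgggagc
Wnt1: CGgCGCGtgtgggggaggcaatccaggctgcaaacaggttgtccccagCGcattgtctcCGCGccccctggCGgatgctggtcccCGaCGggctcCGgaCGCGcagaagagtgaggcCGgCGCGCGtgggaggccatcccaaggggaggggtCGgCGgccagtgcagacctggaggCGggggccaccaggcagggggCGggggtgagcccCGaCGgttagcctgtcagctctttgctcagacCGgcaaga
Otx2: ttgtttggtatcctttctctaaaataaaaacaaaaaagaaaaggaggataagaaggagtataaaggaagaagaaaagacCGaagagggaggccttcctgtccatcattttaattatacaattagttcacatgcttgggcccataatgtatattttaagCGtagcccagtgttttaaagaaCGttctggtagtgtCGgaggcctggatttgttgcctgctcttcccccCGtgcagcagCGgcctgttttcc
Syt13: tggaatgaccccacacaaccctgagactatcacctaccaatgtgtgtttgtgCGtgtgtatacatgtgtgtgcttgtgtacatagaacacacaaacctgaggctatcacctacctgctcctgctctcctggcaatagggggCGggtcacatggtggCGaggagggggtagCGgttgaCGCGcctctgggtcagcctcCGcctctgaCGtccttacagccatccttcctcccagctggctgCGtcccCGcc

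These 6 stretches held 11, 12 and 9 CpG at Sox9, Dmrt1 and Dhh, and 23, 6 and 10 at Wnt1, Otx2 and Syt13, so the 2 outcomes overlapped in the number of CpG at these genes. Over whole windows the outcomes differed in their medians. The CpG observed/expected ratio of the 4001-bp window, which is 1 where CpG is as frequent as its bases predict, had a median of 0.492 (0.470 to 0.510, n = 383) at promoters that kept H3K4me3. It was 0.304 (0.287 to 0.334, n = 138) at those that kept H3K27me3 and 0.467 (0.460 to 0.471, n = 3623) at promoters bivalent in all 4 populations. The intervals of the 2 outcomes do not overlap, while GC content was close, with medians of 51.7% and 52.4%. Over all 522 members the median ratio was 0.447 (0.427 to 0.470).

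A set of 4 short motifs was searched on both strands of the same 250 bases, and none of them contains another. CAAGGTCA, a site form of NR5A1 (SF1), was found at 9 of 522 members (1.72%) and 1.28% of all promoters. ACAATG, a core of SOX sites, was found at 30 members (5.75%) and 10.6% of all promoters, AGATAA of GATA factors at 34 (6.51%) and 11.3%, and ATCAAAG of TCF/LEF factors at 15 (2.87%) and 3.46%. The shares at promoters bivalent in all 4 populations were 0.966%, 5.05%, 5.52% and 2.07%, and each lies inside the interval of the members' share.

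Sertoli-specific genes, a list of names that the study took from published expression profiles of fetal gonad cells, held 115 of the 522 promoters (22%, 18.5 to 25.8), against 3.9% of all windows. Every one of the 115 kept H3K4me3, and 0 of the 138 promoters left with H3K27me3 belonged to the list (upper limit 2.64%). Pregranulosa-specific genes held 14 members (2.68%, 1.47 to 4.46), against 3.22% of all windows, and 12 of them kept H3K4me3. The expression lists played no part in choosing the members. The paper had already reported from the same ChIP-seq, by level of enrichment, that most bivalent testis genes lost H3K27me3 in Sertoli cells. It also reported that most bivalent ovary genes stayed bivalent there. The shares that follow are therefore not independent of that result. Among promoters bivalent in the other 3 populations, 115 of 240 Sertoli-specific genes (47.9%, 41.4 to 54.4) were resolved in Sertoli cells, against 14 of 163 pregranulosa-specific genes (8.59%, 4.78 to 14). Genes in neither list were resolved at 393 of 3742 promoters (interval 9.54% to 11.5%). The mirror comparison had the opposite order, with 40 of 189 pregranulosa-specific genes (21.2%, 15.6 to 27.7) and 3 of 128 Sertoli-specific genes (2.34%, 0.486 to 6.7) resolved in pregranulosa cells alone.

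**Figure D1:**
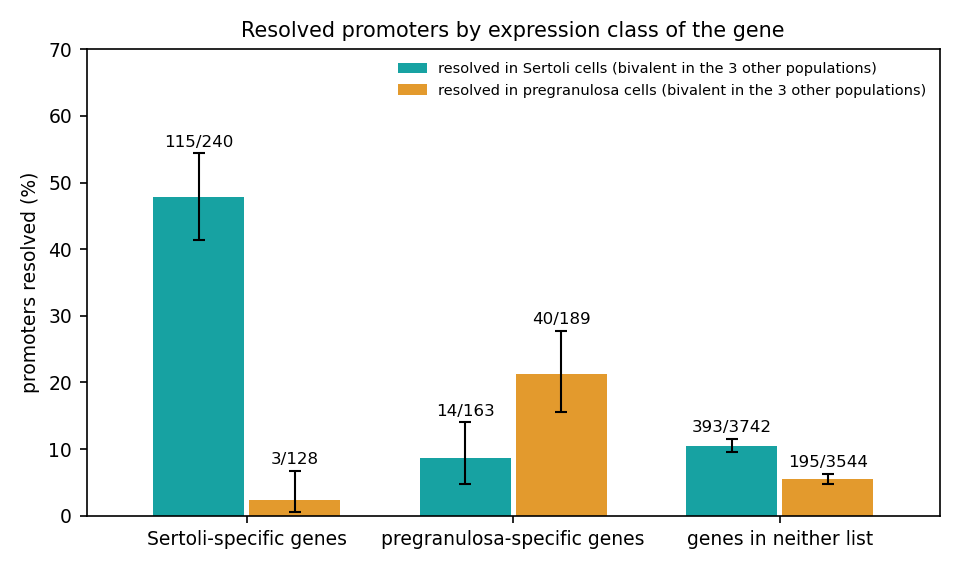
Share of promoters that were resolved (y axis, %), for Sertoli-specific genes, pregranulosa-specific genes and genes in neither list. Bars give resolution in Sertoli cells (teal) or in pregranulosa cells (orange) among promoters bivalent in the other 3 populations, with the counts of promoters above and 95% exact binomial intervals. The Sertoli-specific bar stands at 47.9% in Sertoli cells and 2.34% in pregranulosa cells.

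Sertoli cell genes of a list drawn up for this work had 33 windows, of which 14 were bivalent in both progenitors and pregranulosa cells. Of the 14, 10 were members (71.4%, against 12.6% of all such windows), and all 10 kept H3K4me3. The lists drawn up for this work were made with earlier results of these data known. The paper had already reported, from the same ChIP-seq, reduced H3K27me3 at Sox9, Fgf9 and Dmrt1 in Sertoli cells. The 71.4% is therefore a description and not independent support. The 10 members were Sox9, Dmrt1, Sox8, Fgf9, Dhh, Inhbb, Pdgfa, Etv5, Serpine2 and Tesc, of which Serpine2 and Tesc were named after their values were seen. The other 4 stayed bivalent in Sertoli cells too. Of the 14 pregranulosa cell genes bivalent in the same 3 populations, 13 stayed bivalent in Sertoli cells. The remaining 1, Znrf3, was a member and is also on the study's Sertoli-specific list.

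Sox9 encodes the transcription factor that commits supporting cells to the Sertoli fate. Its window (chr11:112641538-112645538) was covered by H3K27me3 over all 4001 bp in XY progenitors, XX progenitors and pregranulosa cells, and over 0 bp in Sertoli cells. The H3K27me3 region measured 16626 bp, 15336 bp and 26544 bp in those 3 populations, and the nearest Sertoli H3K27me3 region began 10882 bp from the TSS. H3K4me3 covered the whole window in all 4 populations.

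Dmrt1 encodes a transcription factor that maintains Sertoli identity after birth. H3K27me3 covered its window (chr19:25578108-25582108) fully in both progenitors and in pregranulosa cells, inside regions of 14131 bp, 15434 bp and 8874 bp. In Sertoli cells the window had none, and the nearest region lay 91024 bp away. H3K4me3 covered 1274 bp in XY progenitors, 3109 bp in XX progenitors, 3032 bp in Sertoli cells and 3148 bp in pregranulosa cells, so the XY progenitor list was the low one. Along the Dmrt1 gene body H3K27me3 covered 48.2% in XY progenitors and 7.79% in Sertoli cells.

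Secreted signals were among the members. Dhh (window chr15:98726971-98730971), the Hedgehog ligand by which Sertoli cells signal to Leydig cells, lay in H3K27me3 regions of 16702 bp, 14044 bp and 15282 bp in XY progenitors, XX progenitors and pregranulosa cells, and had no H3K27me3 within 86571 bp of its TSS in Sertoli cells. Fgf9, a growth factor that promotes the testis fate and opposes Wnt signaling, lay in regions of 12570 bp, 10207 bp and 15874 bp, with the nearest Sertoli region at 189357 bp. Pdgfa, a ligand of platelet-derived growth factor receptors, lay in regions of 14953 bp, 12845 bp and 13515 bp, with the nearest Sertoli region at 35921 bp. At each of these 3 genes the lists of both progenitors and of pregranulosa cells held a broad domain that the Sertoli list did not hold.

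Inhbb, which encodes the beta B subunit of activins and inhibins, showed the smallest pregranulosa coverage of H3K27me3 of the 10, with 2209 bp of the window against 4001 bp in each progenitor. Its H3K4me3 region was 5145 bp in XY progenitors, 5609 bp in XX progenitors, 6716 bp in pregranulosa cells and 10752 bp in Sertoli cells, the widest of the 4. Sox8, a relative of Sox9, had H3K4me3 regions of 3136 bp, 3708 bp and 3556 bp in XY progenitors, XX progenitors and pregranulosa cells and 5814 bp in Sertoli cells. Sox30, the remaining Sox gene among the members, is in neither expression list and had H3K4me3 regions of 1885 bp, 1797 bp, 2610 bp and, in Sertoli cells, 2266 bp. Of the 10 Sox promoters bivalent in the other 3 populations, these 3 were resolved in Sertoli cells and 7 were not.

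**Figure D2:**
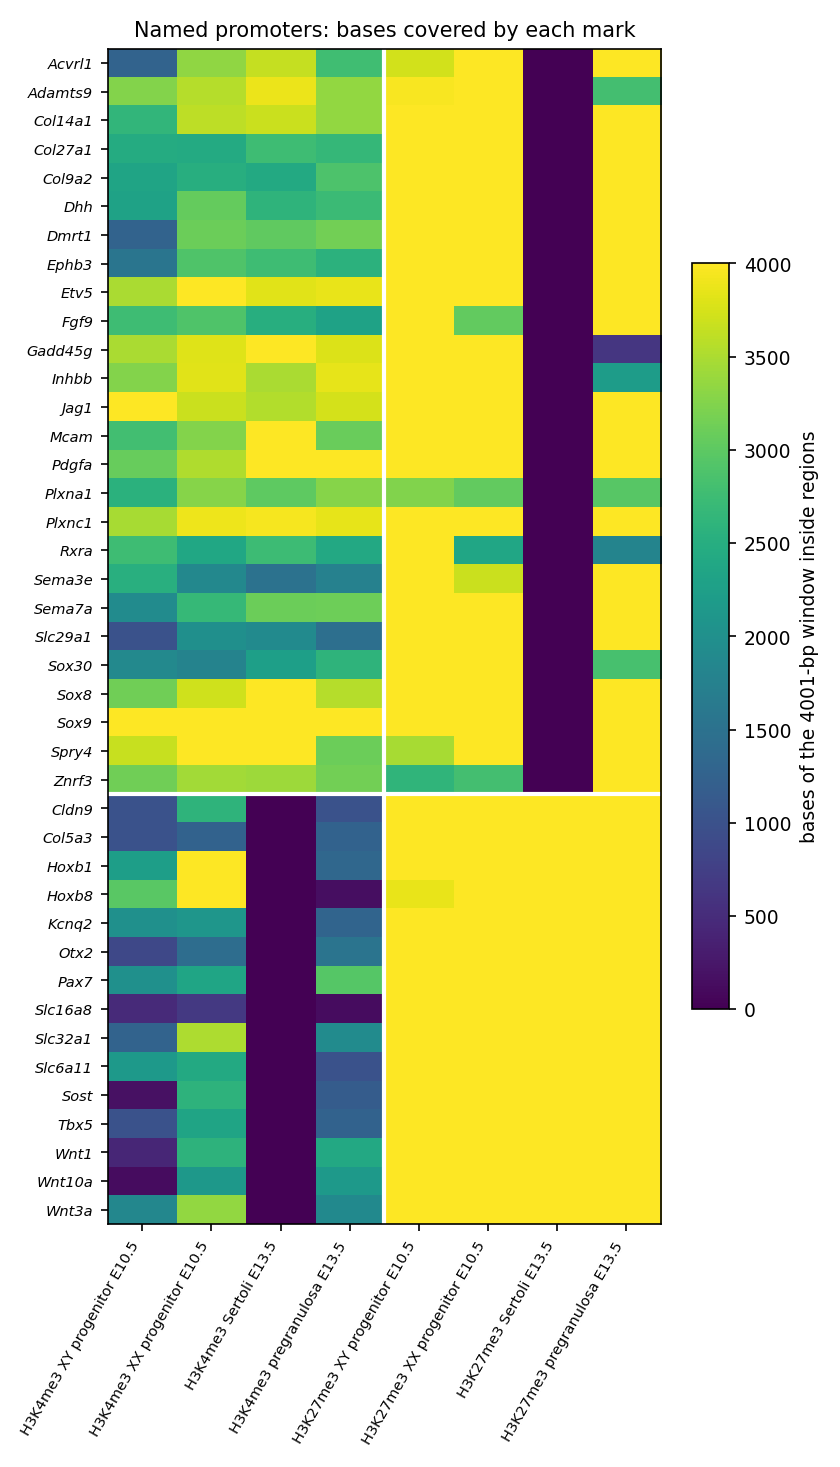
Bases of the 4001-bp window inside H3K4me3 regions (left 4 columns) and H3K27me3 regions (right 4 columns) in each population (colour scale from 0 to 4001 bp). The genes are members taken by the naming rule from the gene lists of pathways, families and cell types, up to 4 from each list, so not every list member is shown. Genes above the white line kept H3K4me3 in Sertoli cells, where their H3K27me3 column is at 0, and genes below it kept H3K27me3, where their H3K4me3 column is at 0.

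Around the 383 promoters that kept H3K4me3, H3K27me3 was also less frequent in Sertoli cells at 5 kb from the TSS, outside the window that the rule set to 0, but not at 10 kb upstream. Over all windows with H3K27me3 in the other 3 populations, 8.72% had none in Sertoli cells, and of those that lacked H3K4me3 in all 3, 5.22%. The nearest Sertoli H3K27me3 region lay at a median of 53316 bp from the TSS (45292 to 65158). It lay within 5 kb for 38 promoters (9.92%), within 20 kb for 103 (26.9%) and within 100 kb for 254 (66.3%). With the AC134897.1 promoter included, the median over the 384 members without H3K27me3 in Sertoli cells was 53395 bp (45834 to 65158). At 5 kb downstream of the TSS, 25.8%, 29.5% and 33.4% of the 383 promoters lay inside an H3K27me3 region in XY progenitors, XX progenitors and pregranulosa cells, against 2.61% in Sertoli cells. At 5 kb upstream the shares were 23.2%, 22.7% and 29.8%, against 7.83%. At 10 kb downstream they were 6.53%, 8.09% and 11%, against 4.96%, and at 10 kb upstream 6.79%, 6.27% and 8.88%, against 9.66% in Sertoli cells, the highest of the 4. Regions that overlap a window can reach 5 kb, so these shares are not independent of the rule.

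At 348 of the 383 promoters (90.9%) not 1 base of the XY progenitor H3K27me3 region was covered in Sertoli cells, and at 21 (5.48%) at least 50% was. The 313 distinct XY regions over these promoters summed to 2.55 Mb, of which 11.9% was still covered in Sertoli cells. The rule sets the 4001 bp of the window to 0 in Sertoli cells, and the median XY region here was 6457 bp wide, so most of these bases were uncovered by the choice of the promoters and the counts are a description. Across the gene body, which includes part of the window, 348 of the 383 genes had no H3K27me3 in Sertoli cells, against 20, 16 and 33 in XY progenitors, XX progenitors and pregranulosa cells. Another transcript start more than 4 kb away was annotated for 124 of the 383 genes, and 10 of these had H3K27me3 there in Sertoli cells.

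**Figure D3:**
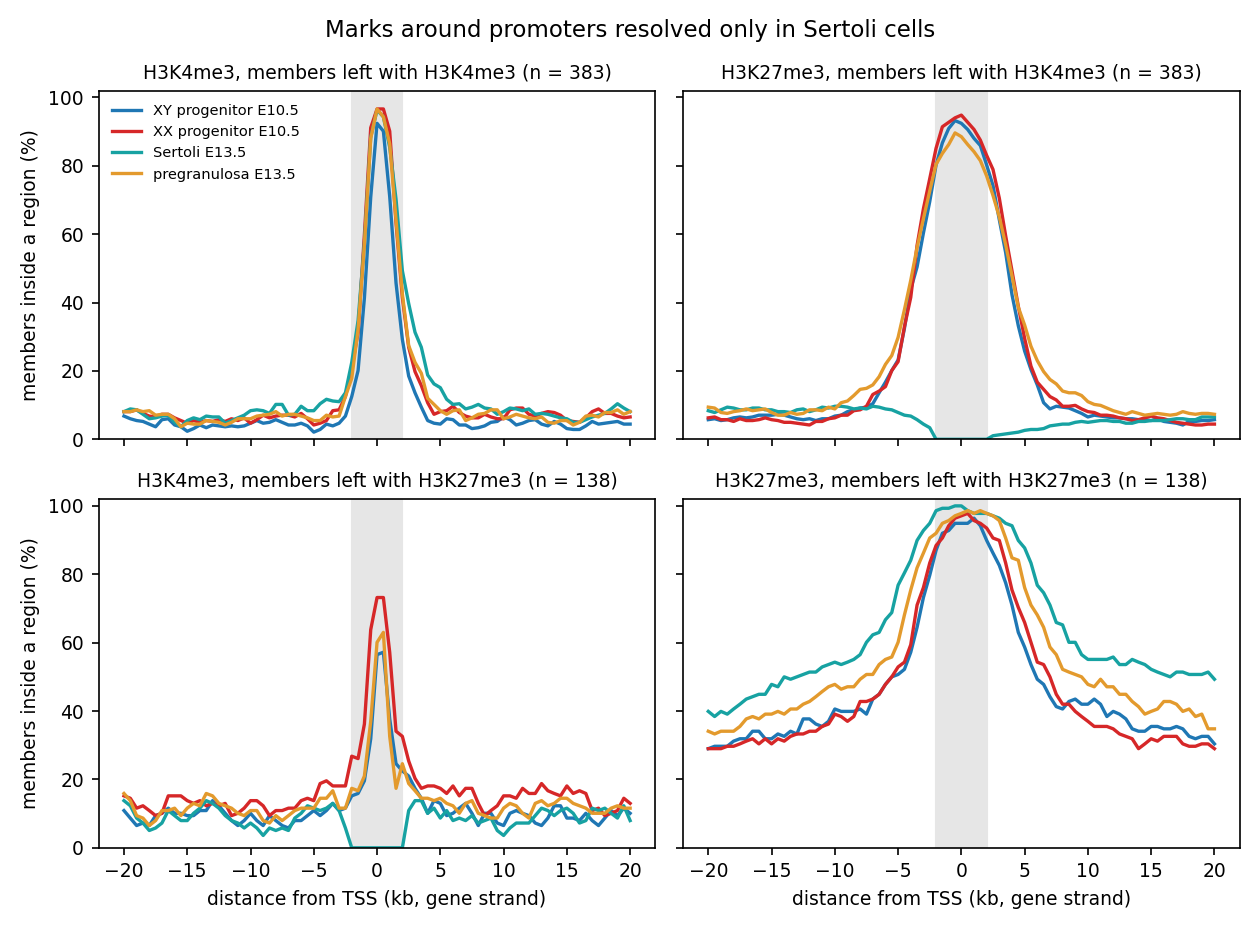
Share of members inside a region (y axis, %) by distance from the TSS (x axis, kb, on the gene strand) for H3K4me3 (left) and H3K27me3 (right), in promoters that kept H3K4me3 (top, n = 383) or H3K27me3 (bottom, n = 138). Lines are the 4 populations and the grey band is the window that chose the members, where the 0% of the lost mark is set by the rule. In the upper right panel the Sertoli line lies below the other 3 at 5 kb on either side (7.83% upstream, 2.61% downstream) and above them at 10 kb upstream (9.66%).

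The H3K27me3 regions at promoters that kept H3K4me3 were narrower than those at promoters bivalent in all 4 populations. At the 383 promoters the median region width was 6457 bp in XY progenitors (6308 to 7549), 7598 bp in XX progenitors (7519 to 7783) and 7531 bp in pregranulosa cells (6772 to 7641). At promoters bivalent in all 4 populations it was 9891 bp, 10307 bp and 11560 bp in the same order. Promoters resolved only in pregranulosa cells, which kept both marks in Sertoli cells, had 6332 bp in XY and 7554.5 bp in XX progenitors. Those resolved in both lineages had 6277.5 bp and 6275 bp. Narrower progenitor regions were thus not particular to the members. Several of these lists were built from 5001-bp windows, so widths fall in steps. Among Sertoli-specific genes alone, the 115 resolved promoters had medians of 7549 bp (6323 to 8120), 7865 bp (7519 to 8887) and 9266 bp (8112 to 9981). The 125 that stayed bivalent had 8938 bp (7740 to 9570), 10024 bp (8960 to 10447) and 11656 bp (10463 to 12881), so the intervals overlapped in XY progenitors and not in the other populations. Over all 522 members the XY progenitor median was 7588.5 bp (7533 to 7785).

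The median width of the H3K4me3 region, which the rule did not use, was largest in Sertoli cells at the Sertoli-specific members. At the 115 Sertoli-specific members the median was 2548 bp in XY progenitors (2340 to 2829), 3340 bp in XX progenitors (3113 to 3653), 3183 bp in pregranulosa cells (2968 to 3621) and 4289 bp in Sertoli cells (3762 to 4899). The Sertoli region was wider than the pregranulosa region at 87 of 115 (75.7%), against 29.3% of all windows with H3K4me3 in both. It was wider than the XX progenitor region at 88 (76.5%, against 28.2%) and than the XY progenitor region at 108 (93.9%, against 70.2%). The median ratio of Sertoli to pregranulosa width was 1.20 (1.13 to 1.32). At the 256 members that kept H3K4me3 and are in neither list, the Sertoli and pregranulosa medians were 2722 bp (2598 to 3004) and 2924 bp (2670 to 3166), and the ratio was 0.971 (0.942 to 1.01). Sertoli-specific promoters that stayed bivalent in all 4 populations had a ratio of 1.10 (1.03 to 1.14, n = 125), and all 3623 such promoters 0.893 (0.884 to 0.902). Median widths in XY progenitors were the lowest in each of these groups. That list had the fewest H3K4me3 tags of those with a header, and the part of depth in these widths was not tested.

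**Figure D4:**
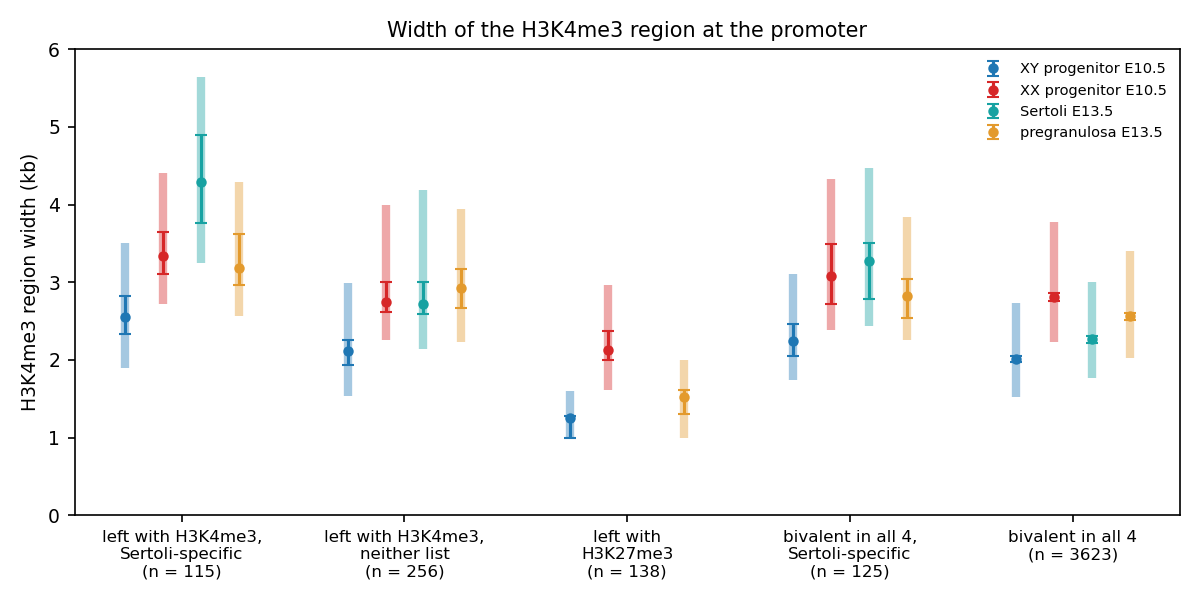
Width of the H3K4me3 region at the promoter (y axis, kb) in 5 groups of promoters and 4 populations. Points are medians with 95% order-statistic intervals, pale bars span the quartiles, and the promoters left with H3K27me3 have no Sertoli value. At Sertoli-specific members the Sertoli median is 4289 bp and the other 3 medians are 2548 bp to 3340 bp.

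Named members show the range of this widening. Mcam is a cell adhesion gene of perivascular and interstitial cells and is on the Sertoli-specific list. At Mcam H3K4me3 spanned 1781 bp, 3257 bp and 3455 bp in XY progenitors, XX progenitors and pregranulosa cells and 7913 bp in Sertoli cells. At BC021891 it spanned 3700 bp, 3609 bp, 4128 bp and, in Sertoli cells, 12477 bp. Rab20, a small GTPase gene in neither expression list, measured 3191 bp, 4628 bp and 4000 bp in the same 3 and 10249 bp in Sertoli cells. At Cbln4 and Serpine2, which were picked after their values were seen, the Sertoli widths were 8040 bp and 6647 bp, against 2387 bp and 2408 bp in pregranulosa cells. The widening was not general, because Jag1, a Notch ligand, had 5693 bp, 5877 bp, 5472 bp and, in Sertoli cells, 5101 bp, and Sema3e, a semaphorin, had 2518 bp, 1862 bp, 1761 bp and 1509 bp. At Sox9, Fgf9 and Dhh the region was wider in XX progenitors (9003 bp, 8224 bp and 6145 bp) than in Sertoli cells (8157 bp, 7549 bp and 5759 bp). It was widest in Sertoli cells at Dmrt1, Pdgfa and Etv5, as at Sox8 and Inhbb.

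Sertoli-specific members were ranked by H3K27me3-covered bases in the window summed over the other 3 populations, with ties broken by the total width of the regions. The first 10, not listed in rank order, were Sox9, BC006965, Dmrt1, Dhh, Pdgfa, Socs2, Tox, Nrbp2, Fam83f and BC021891. All 10 windows were fully covered in those 3 populations. Socs2, a suppressor of cytokine signaling, lay in H3K27me3 regions of 16313 bp, 16209 bp and 29873 bp in XY progenitors, XX progenitors and pregranulosa cells. Tox, which encodes an HMG-box protein, lay in regions of 10342 bp, 10284 bp and 55097 bp, and its TSS was 1241791 bp from the nearest Sertoli region, far beyond the median. Fam83f had the weakest H3K4me3 of the 10 in XY progenitors, 1001 bp, which is the width of a single peak, and 2591 bp in Sertoli cells.

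Members in neither expression list included genes of broad use. Junb, an AP-1 transcription factor, had H3K27me3 over its whole window in regions of 7531 bp, 15966 bp and 15270 bp in XY progenitors, XX progenitors and pregranulosa cells, and none in Sertoli cells, where a region lay 6370 bp from the TSS. H3K4me3 covered 2536 bp of the Junb window in XY progenitors and all of it elsewhere. Gadd45g, a stress response gene needed for timely Sry expression, had 4001 bp of H3K27me3 in both progenitors, 627 bp in pregranulosa cells and 0 bp in Sertoli cells. Its nearest Sertoli region began 2229 bp from the TSS, and 33.7% of the 21023 bp marked in XY progenitors was still covered, so Gadd45g stands near the edge of the rule.

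Pregranulosa-specific members that kept H3K4me3 in Sertoli cells were led, not in rank order, by Enpp2, Optn, Ppp4r4 and 5033414D02Rik. Enpp2, the gene of the lysophospholipase autotaxin, had H3K27me3 over its whole window in regions of 6257 bp, 6340 bp and 6626 bp in XY progenitors, XX progenitors and pregranulosa cells, and H3K4me3 over 1898 bp, 3067 bp, 3292 bp and, in Sertoli cells, 2903 bp. Optn, an autophagy receptor gene, had H3K4me3 over 2325 bp, 2378 bp, 2859 bp and 2277 bp in the same order. Igf2, an imprinted growth factor gene, kept H3K27me3 instead, with 474 bp of H3K4me3 in XY progenitors, 1853 bp in XX progenitors, 187 bp in pregranulosa cells and 0 bp in Sertoli cells.

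Wnt signaling promotes the ovary fate, and 8 of the 40 Wnt pathway promoters bivalent in both progenitors and pregranulosa cells were members (20%, against 12.6% of all such windows). Fzd5, Fzd9 and Nkd2 among them were named after their values were seen. The ligands Wnt1, Wnt3a and Wnt10a and the secreted inhibitor Sost kept H3K27me3, while the receptors Fzd5 and Fzd9 and the negative regulators Znrf3 and Nkd2 kept H3K4me3. The other 32 stayed bivalent in all 4 populations.

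At Wnt1 (window chr15:98618288-98622288) H3K4me3 covered 434 bp of the window in XY progenitors, 2594 bp in XX progenitors, 2419 bp in pregranulosa cells and 0 bp in Sertoli cells, where a region lay 2410 bp from the TSS, close to the window edge. H3K27me3 covered the whole window in all 4 populations, in regions of 49820 bp, 50865 bp, 45711 bp and, in Sertoli cells, 44761 bp. At Wnt10a H3K4me3 covered 132 bp, 2134 bp and 2151 bp, and at Wnt3a 1856 bp, 3359 bp and 1898 bp, in XY progenitors, XX progenitors and pregranulosa cells. Sost, whose product binds Wnt co-receptors, had 179 bp, 2592 bp and 1169 bp, and its nearest Sertoli H3K4me3 region lay 2188 bp from the TSS. At Wnt1, Wnt10a and Sost the XY progenitor value lay between 132 bp and 434 bp, so their membership rests on a narrow overlap in that list.

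Znrf3 encodes a ubiquitin ligase that removes Wnt receptors from the cell surface. It is on the Sertoli-specific list and also on the list of pregranulosa cell genes drawn up for this work. H3K27me3 covered 2624 bp of its window in XY progenitors, 2800 bp in XX progenitors, 4001 bp in pregranulosa cells and 0 bp in Sertoli cells, where a region lay 4786 bp from the TSS. H3K4me3 covered 3134 bp, 3447 bp and 3143 bp, and 3417 bp in Sertoli cells. At Fzd9 the H3K4me3 region was 2505 bp, 3661 bp, 2973 bp and, in Sertoli cells, 5055 bp, and at Nkd2 1609 bp, 2245 bp, 2929 bp and 4607 bp, widest in Sertoli cells at both.

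Among other signaling lists, to be read against the 12.6% of all windows bivalent in the other 3 populations, Fgf pathway genes had 3 of 18 members (16.7%; Fgf9, Etv5 and the feedback inhibitor Spry4), and all 3 kept H3K4me3. Spry4 had H3K4me3 regions of 3660 bp, 4326 bp, 3255 bp and, in Sertoli cells, 5306 bp. The lists of Hedgehog (Dhh, of 7), Notch (Jag1, of 14) and retinoic acid genes (Rxra, of 8) each had 1 member, and that of Tgf-beta and Bmp genes had 2 of 28 (Inhbb and the receptor gene Acvrl1). Semaphorins and plexins, which guide migrating cells and axons, had 4 of 13 (Sema3e, Sema7a, Plxna1 and Plxnc1), and collagens 4 of 16, of which Col14a1, Col27a1 and Col9a2 kept H3K4me3 and Col5a3 kept H3K27me3. Solute carriers had 13 of 74, with 7 that kept H3K4me3 and 6 that kept H3K27me3. These shares come from small counts and were not tested.

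Markers of other cells that a sort could include had few promoters bivalent in the other 3 populations, of which 12.6% were members over all genes. Germ cell, endothelial, blood cell, and mesonephric and epithelial markers had 0 members among 3, 8, 1 and 10 promoters bivalent in the other 3 populations. Interstitial and Leydig cell markers had 1 of 9 (Mcam, 11.1%), and Mcam is also on the Sertoli-specific list. The rest of these promoters stayed bivalent in Sertoli cells. Neural markers had 1 of 12 (8.33%), Otx2, which kept H3K27me3.

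The 138 promoters that kept H3K27me3 alone had carried narrow H3K4me3 in the populations that had it. H3K4me3 covered a median of 1008 bp of their windows in XY progenitors, 1877 bp in XX progenitors and 1278.5 bp in pregranulosa cells, against 1986 bp, 2653 bp and 2437 bp at promoters bivalent in all 4 populations. Coverage of at most 1001 bp, the width of a single peak, was found at 69 of the 138 (50%) in XY progenitors, 17 (12.3%) in XX progenitors and 53 (38.4%) in pregranulosa cells. At the 383 promoters that kept H3K4me3 the same counts were 22, 2 and 4. The H3K4me3 region held the TSS at 56.5%, 73.2% and 60.1% of the 138, against 92.4%, 96.6% and 96.6% of the 383. The nearest Sertoli H3K4me3 region lay at a median of 10594 bp from the TSS (6692 to 12095), and within 5 kb at 48 of the 138. Among windows with H3K4me3 in both progenitors and in pregranulosa cells, 1.74% had none in Sertoli cells, and of those that lacked H3K27me3 in all 3, 1.04%.

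Their H3K27me3 domains were broad and were broadest in Sertoli cells. The median region width was 11684.5 bp in XY progenitors (9750 to 15523), 13691.5 bp in XX progenitors (10288 to 17035), 18484 bp in pregranulosa cells (14993 to 22292) and 23856.5 bp in Sertoli cells (18894 to 28954). At promoters bivalent in all 4 populations the medians were 9891 bp, 10307 bp, 11560 bp and 13065 bp. At the 37 promoters resolved in both lineages that kept H3K27me3 in Sertoli cells, the Sertoli median was 22253 bp (13379 to 28526). Their median ratio of Sertoli to XX progenitor width was 1.41 (1.25 to 1.62). Broad Sertoli domains were thus not particular to the members. The Sertoli region was wider than the XX progenitor region at 120 of the 138 (87%), with a median ratio of 1.44 (1.34 to 1.67), against 76.8% of all windows with H3K27me3 in both. Against XY progenitors it was wider at 123 (89.1%), with a ratio of 1.57 (1.42 to 1.73), and the share over all windows was 77.7%. It was wider than the pregranulosa region at 99 of 138 (71.7%), with a ratio of 1.15 (1.08 to 1.23), against 64.3%. The Sertoli H3K27me3 list had the most tags of those with a header, and the part of depth in these widths was not tested.

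Of the homeobox and other transcription factor lists, Pax genes had 1 member of 8 (12.5%), T-box genes 1 of 10 (10%), and Fox, Nkx, LIM homeobox and Irx genes 0 of 25, 11, 9 and 6, against 12.6% of all such windows. Pax7, a regulator of muscle stem cells and the dorsal neural tube, had H3K4me3 over 2002 bp, 2353 bp and 2941 bp in XY progenitors, XX progenitors and pregranulosa cells, inside H3K27me3 regions that measured from 84783 bp to 113347 bp across the 4 populations. Tbx5, a heart and forelimb factor, had 1001 bp, 2339 bp and 1262 bp of H3K4me3, and its H3K27me3 region in Sertoli cells measured 171700 bp. Otx2, a forebrain factor (window chr14:49285319-49289319), had 872 bp, 1433 bp and 1543 bp of H3K4me3 and a Sertoli H3K27me3 region of 46128 bp. Muscle (Myod1), paraxial mesoderm (Msgn1), neural (Olig3, Barhl1) and bone (Sp7) transcription factor genes, picked after their values were seen, were members of the same kind. Their H3K4me3 coverage in XY progenitors was 2399 bp, 1001 bp, 999 bp, 1001 bp and 1487 bp.

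Hoxb1 and Hoxb8 were the 2 members among 22 Hox promoters bivalent in the other 3 populations (9.09%, against 12.6% of all such windows), and the other 20 stayed bivalent. Both lay in 1 Sertoli H3K27me3 region of 117141 bp. Hoxb8 had 2984 bp of H3K4me3 in XY progenitors, 4001 bp in XX progenitors, 154 bp in pregranulosa cells and 0 bp in Sertoli cells, where a region lay 2314 bp from the TSS. Its H3K27me3 region measured 36528 bp and 39582 bp in XY and XX progenitors and 138194 bp in pregranulosa cells. Hoxb1 had 2242 bp, 4001 bp and 1329 bp of H3K4me3. At both genes the pregranulosa list was the lowest of the 3 that held H3K4me3. Nfam1 and Syt13 were also among the 6 protein-coding genes of the group with the widest Sertoli regions, with 168398 bp and 96463 bp. The Syt13 region measured 6258 bp in XY progenitors, 7542 bp in XX progenitors and 10270 bp in pregranulosa cells.

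Of the 12 miRNA genes among the members, 8 kept H3K27me3. For such a gene the window lies around the start of the precursor and need not be the promoter of the primary transcript. Mature sequences from RefSeq (GRCm38) matched 6 of the 12, all of them among the 8, and 4 sequences are printed with the seed (bases 2 to 8) in capitals to show that they share no seed.
mmu-miR-483-3p: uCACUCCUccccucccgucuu
mmu-miR-196a-5p: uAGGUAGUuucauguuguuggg
mmu-miR-146b-5p: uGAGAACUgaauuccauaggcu
mmu-miR-497a-5p: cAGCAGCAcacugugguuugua

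Mir483 lies within the gene Igf2 and, like it, inside a Sertoli H3K27me3 region of 26350 bp. Its window held 3168 bp of H3K4me3 in XY progenitors, 3370 bp in XX progenitors, 2753 bp in pregranulosa cells and 0 bp in Sertoli cells. Mir196a-2, a gene of the Hoxc cluster, had 3779 bp, 4001 bp and 1708 bp of H3K4me3 in the same 3 populations and a Sertoli H3K27me3 region of 134093 bp. Mir497 and Mir146b had less, at most 1764 bp and 1107 bp in any population. Mir375, known from endocrine cells, had 1001 bp, 1901 bp and 2319 bp. All of these miRNA genes were named after their values were seen.

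**Figure D5:**
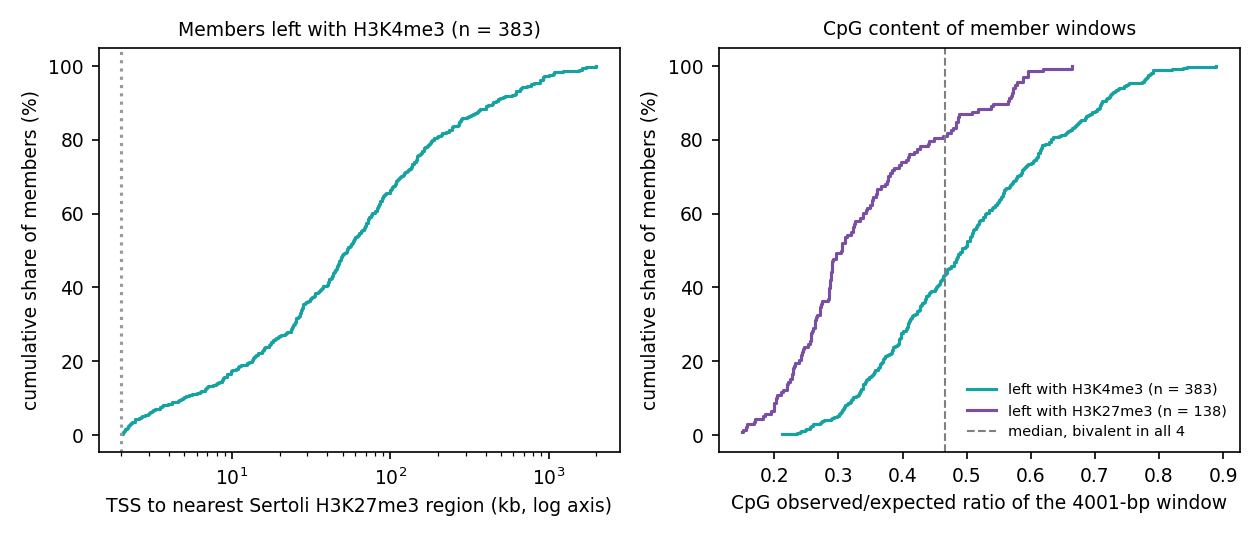
Left, cumulative share of the 383 promoters that kept H3K4me3 (y axis, %) by the distance from the TSS to the nearest Sertoli H3K27me3 region (x axis, kb, log scale, dotted line at the window edge of 2 kb); the curve passes 26.9% at 20 kb and 66.3% at 100 kb. Right, cumulative share of members by CpG observed/expected ratio of the window, for promoters that kept H3K4me3 or H3K27me3, with medians of 0.492 and 0.304, and a dashed line at the median of promoters bivalent in all 4 populations (0.467).

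The rule has a sharp edge, and the members nearest to it differ little from the promoters just outside. Just inside, the window of Hus1 ended 34 bp from a Sertoli H3K27me3 region, that of Cpeb2 56 bp and that of Cdk2ap2 62 bp. Just outside, the windows of Npm3, Gemin7 and Lemd3 held 12 bp, 28 bp and 54 bp of Sertoli H3K27me3. For H3K4me3, the windows of Gm20467, Eml2 and Slc16a8 ended 2 bp, 16 bp and 25 bp from a Sertoli region, and those of 1700112J05Rik, Gm2904 and Gm17298 held 34 bp, 40 bp and 74 bp. The identity of the members depended on the length of the lists. When all lists of a mark were brought to 1 length by keeping only their widest regions, 505 promoters met the rule and 336 of them were among the 522 (64.4% of the 522).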

How the data were processed

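ChIP-seq of H3, H3K4me3 and H3K27me3 was done on chromatin digested with micrococcal nuclease. The authors' processing notes name Trim Galore, Bowtie, SAMtools, HOMER and mm9, and the authors deposited 8 lists of enriched region positions, each pooling 2 replicates, with a score column that is 1 in every row and was not used. Per the file headers of 6 lists, regions were called at 4-fold over input and over the local region, with a Poisson p of 0.0001, with peak sizes of 1000 bp (H3K4me3) and 5000 bp (H3K27me3). Overlapping regions were joined and set against windows of 2 kb on each side of 1 TSS per gene (GENCODE M1, NCBIM37) with Python 3.11.15, NumPy 2.4.6 and SciPy 1.17.1. The overlap code was tested on simulated regions.

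The members, gene lists and comparisons were chosen with earlier results of these data known. Sertoli-specific and pregranulosa-specific gene names came from the study's supplementary lists (1337 of 1408 and 1102 of 1164 matched), which rest on published expression profiles. Genes were named by a written rule: those the paper names, those with most H3K27me3 in each expression class, those with the widest Sertoli H3K27me3, and up to 4 in each gene list. H3 files were not used here. The closing section gives 11 alternatives.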

Additional observations from a re-analysis of the deposited data

How the results depend on the processing

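In all, 110 values were recomputed (10 results under 11 alternatives, 3 of them added after seeing the data). Of these values, 79 moved by less than their interval, or within 1.5 times for the count of promoters, and 31 moved by more. The pregranulosa-specific share, 2.68%, lay below the 3.22% of all windows on chromosomes 1 to 19. It was above that figure without the pregranulosa lists (6.49%) and with chromosome X (3.94%). The share left with neither mark, 0.192%, was 0 with an overlap of at least 500 bp, the widest 75% of regions, lists of equal length, protein-coding genes, windows that overlap no other, and marks absent from 5 kb on each side in Sertoli cells. With the widest 75% of regions, 62.7% kept H3K4me3 and 37.3% H3K27me3, and the XY progenitor H3K27me3 width was 9232.5 bp. With lists of equal length the resolved share was 14.2%, that width 7959 bp and the distance to Sertoli H3K27me3 86625.5 bp. Without the pregranulosa lists 1110 promoters met the rule, 22.3% of candidates, of which 83.9% kept H3K4me3, 15.8% kept H3K27me3, 16.5% were Sertoli-specific and 6.49% pregranulosa-specific, with a width of 6361 bp. Without the XY progenitor lists the resolved share was 14.1%, 66.1% kept H3K4me3, 33.5% kept H3K27me3 and the CpG ratio was 0.419. With marks absent from 5 kb on each side, the first 3 of these were 10.52%, 79.4% and 20.6%, with a width of 7528 bp. Non-overlapping windows left 324 promoters, 26.9% of them Sertoli-specific, protein-coding genes gave 26.3%, and windows of 1 kb on each side a CpG ratio of 0.575. The cause of these moves was not tested. The share of Sertoli-specific promoters that were resolved, 47.9%, ranged from 44.6% to 58.8%, and that of pregranulosa-specific promoters, 8.59%, from 6.54% to 12.6% (with chromosome X) and 27.6% (without the pregranulosa lists). The 27.6% lay above the 22.3% of all candidates in that setting. The count of Sertoli-specific members left with H3K27me3 alone, 0 of 115, was 1 of 117 with an overlap of at least 500 bp. It was 1 of 183 without the pregranulosa lists and stayed at 0 under the other alternatives. Of the 522 promoters, 252 met the rule with the widest 75% of regions. No paired analysis was possible because each list pools both replicates, which also means that no replicate could be left out.

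Presence depends on depth and calling, which differed between lists, and on 1 list per condition. A region absent from a list is not shown to lack the mark.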
